A study of Xenopus laevis with 3 samples.

Results

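The keratin-rich epithelial somatic cells of the juvenile *Xenopus laevis* ovary are described here. They were picked from single-cell counts by a rule on marker genes. A cell was a member when keratin 8 and keratin 18 together reached at least 10 of every 10000 of its UMIs (unique molecular identifiers, each standing for 1 captured transcript) with at least 3 UMIs. The follicle-cell markers *foxl2* and *amh* had to be at 0 UMIs, and type I collagen (*col1a1* and *col1a2*) under 20 per 10000. The germline genes *ddx4* and *dazl* had to be under 8 per 10000. Of 19253 cell barcodes in all, 17196 held 100 to 8000 genes and at most 1.5% mitochondrial UMIs, 8765 of those were somatic by the germline limit, and 1041 met the whole rule. They are called keratin cells below. The values that chose them were their own counts of these genes, so the levels of those genes are given as a description, with no test.

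The samples were 3 individual ovaries of untreated wild-type froglets at stages NF62 to NF66, each made into 1 droplet library. About 10000 cells were loaded per library, and the stage of each single ovary was not given in the labels. The submitters labelled all 3 libraries as germline cells, yet somatic cells made up 4611 of 5621, 1036 of 5369 and 3118 of 6206 kept cells. No group was treated, so comparisons were made between cell groups within the same 3 animals. The libraries shared few barcodes (12 between ovaries 1 and 2, 6 between 1 and 3, 16 between 2 and 3), and 0 of them were keratin cells in both libraries.

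Keratins 8 and 18 are partner proteins that build the intermediate filaments of simple epithelia, the single-layered sheets that line cavities and cover organs. The ovary is covered by such a sheet, the surface epithelium, which comes from the lining of the body cavity; in the mouse, cells of the same origin also give rise to follicle cells. Follicle cells surround each oocyte, feed it through gap junctions, and make inhibin and oestrogen. Stromal cells lie beneath and between follicles and lay down collagen.

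Keratin cells numbered 517 in ovary 1, 175 in ovary 2 and 349 in ovary 3. They made up 11.2% of somatic cells in ovary 1 (exact binomial 95% interval 10.3 to 12.2), 16.9% in ovary 2 (14.7 to 19.3) and 11.2% in ovary 3 (10.1 to 12.4). Intervals here and below cover counting error only. The share was thus highest in ovary 2, the ovary with the fewest somatic cells. Without the limit on mitochondrial UMIs the share was 21.2% in ovary 2, against 11.1% and 12.1% in the others, because 149 of the 227 cells that the limit alone kept out came from ovary 2. The median keratin cell held 2534, 3129 and 1825 UMIs in ovaries 1, 2 and 3, and the summed cells of each ovary held 1811489, 676955 and 941726 UMIs.

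The summed level of keratin 8 and 18 had a median of 76.7 per 10000 UMIs over the 1041 cells, with 34.9 at the 10th and 137 at the 90th percentile. By ovary the median was 65.5, 111 and 83.2, so it was highest in ovary 2. Few cells lay at the keratin limit. The 6 cells between 10 and 12 per 10000 had a median of 10.7, and the 14 cells between 8 and 10 that met the other conditions had a median of 9.11. At the UMI limit, 45 cells had exactly 3 keratin UMIs and 45 others were left out with 2. The collagen limit was crossed by 36 cells, 12 in each ovary, and 490 of the keratin cells had 0 UMIs of type I collagen. Of *ddx4* and *dazl*, 711 keratin cells had 0 UMIs, and with a germline limit of 2 per 10000 there were 405, 109 and 252 members in ovaries 1, 2 and 3.

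Of the 8765 somatic cells, 3049 held at least 3 keratin UMIs. Among cells within the other limits, the condition on *foxl2* and *amh* left out more cells than it kept. Of the somatic cells within the keratin and collagen limits, 1674 held at least 1 UMI of these genes and 1041 held none; 689 of the former held exactly 1. Detection followed the depth of the cell. It was 29.3% among the 116 cells under 1000 UMIs, 41.9% among 604 cells of 1000 to 2000, 56.7% among 953 cells of 2000 to 5000 and 81.3% (exact interval 78.8 to 83.6) among 1042 cells of 5000 or more. The same order held in each ovary. Of the 1041 keratin cells, 195 had 5000 or more UMIs and 82 had under 1000, so for shallow members a count of 0 says little about whether the genes were expressed.

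**Figure D1:**
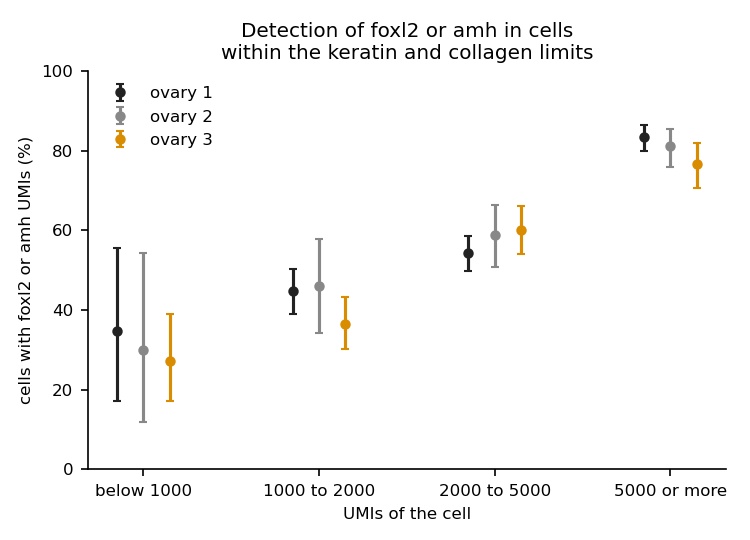
Share of cells with at least 1 UMI of foxl2 or amh (vertical axis, percent) against the UMIs of the cell (horizontal axis, 4 bands), for somatic cells within the keratin and collagen limits. Points are the 3 ovaries and bars are exact binomial 95% intervals; detection rose from 29.3% in the shallowest band to 81.3% in the deepest over all ovaries, and the cells without such a UMI are the keratin cells.

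Keratin RNA outside these cells was measured in the same way. Among 95 somatic cells rich in haemoglobin (red blood cells; at least 1000 per 10000 UMIs from globin genes), 5.26% held a keratin 8 or 18 UMI at a median of 1553 UMIs, and 0 of 95 held 3, which allows a share of up to 3.16%. Among collagen-rich stromal cells, defined by type I collagen, 8.60% held a keratin UMI at a median of 1994.5 UMIs. Their summed keratin level was 0.559 per 10000 in ovary 1, 9.18 in ovary 2 and 1.97 in ovary 3, so ovary 2 stood apart among stromal cells. Germline cells had 2.80 per 10000 over all ovaries. Follicle-lineage cells, which are somatic cells with a *foxl2* or *amh* UMI, had 40.0, 86.1 and 47.7 per 10000. Keratin 8 and 18 were therefore shared with the follicle lineage and were not particular to the keratin cells.

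The names *krt8.S*, *krt18.L* and *krt18.S* in the rule are older symbols for *krt8.1.S*, *krt18.1.L* and *krt18.1.S*. For *krt8.L* no match was found in RefSeq, and *krt8.1.L* was taken in its place, with .L and .S for the 2 subgenomes of this allotetraploid frog. In keratin cells *krt18.1.L* was at 41.1, 73.9 and 58.4 per 10000 and *krt18.1.S* at 1.68, 2.35 and 3.98. The .L copy thus gave 96.1%, 96.9% and 93.6% of keratin 18 UMIs. For keratin 8 the .L share was 75.0% in ovary 1 (73.7 to 76.2), 90.8% in ovary 2 (89.5 to 92.0) and 88.9% in ovary 3 (87.4 to 90.2), so ovary 1 held more of the .S copy than the other ovaries. The follicle-lineage cells of the same ovaries gave 74.0%, 90.9% and 86.4%, so the low share in ovary 1 was seen in both cell groups. The sequences of the copies were not compared here, so the split of UMIs between them is uncertain.

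The balance of the copies differed from gene to gene. For keratin 19 the .L copy gave only 21.1%, 21.1% and 29.6% of UMIs, and for keratin 7 it gave 74.9%, 71.4% and 63.1%. E-cadherin came almost wholly from *cdh1.S*: the .L share was 1.29%, 8.22% and 6.38% in keratin cells. In follicle-lineage cells it was 6.60%, 9.25% and 14.5%, and in germline cells it was 41.0%, 54.7% and 67.4%. *aldh1a2*, which encodes the retinaldehyde dehydrogenase that makes retinoic acid in the embryonic body cavity lining, was almost wholly *aldh1a2.L* in keratin cells (99.6%, 98.9% and 100%), against 83.1%, 60.5% and 69.4% in germline cells. The .L share of *aldh1a2* in follicle-lineage cells was 99.5%, 98.9% and 99.4%, so for both genes keratin and follicle-lineage cells leaned to the same copy. In both genes the intervals of keratin and germline cells did not overlap in any ovary.

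The first comparison asked how keratin cells differ from the collagen-rich stromal cells, which numbered 1377, 234 and 1075. UMIs were summed per ovary and group, and the 3 sums of keratin cells were tested against the 3 sums of stromal cells with edgeR's quasi-likelihood test, with Benjamini-Hochberg adjustment over all genes and a threshold of 0.05. Levels are UMIs per 10000 UMIs of a sum. The genes of the rule were left out of the test. Since the collagen limit separated the groups, lower levels of other matrix genes follow in part from the rule. Keratin cells also had to reach the keratin limit. Higher levels of genes expressed together with the keratins of the rule thus follow in part from it too. The test describes cells so divided. Of 10970 genes tested, 788 (7.18%) were higher and 931 (8.49%) were lower in keratin cells. DESeq2 called 718 (6.55%) higher and 818 (7.46%) lower. With the ovary as a block, since both sums of an ovary come from 1 animal, the counts were 1330 (12.1%) and 1488 (13.6%), and they included all 1719 genes of the first test.

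Keratin cells, chosen by a keratin limit, also had other genes of a simple epithelium. *krt19.S* was at 13.5, 13.6 and 8.83 per 10000 in keratin cells of ovaries 1, 2 and 3, against 0.875, 1.62 and 0.411 in stromal cells. The groups did not overlap, and the difference was 3.59 on the log2 scale (SE 0.50, adjusted p = 0.00163; without ovary 1 it was 3.46 at an adjusted p of 0.0506). *krt7.L* was at 6.53, 14.6 and 7.97 against 0.116, 2.10 and 0.133, a log2 difference of 3.73 (SE 1.00, adjusted p = 0.0338) that was no longer called without ovary 1 (adjusted p = 0.180) or ovary 3 (0.102). Of 68 other keratin features, 51 were at 0 in keratin cells and 6 passed the filter on low counts. Those 6, both copies of *krt7* and *krt19*, *krt17.S* and *krt23.L*, were called higher. *krt19.L* and *krt7.S* also lost their call without ovary 1 and without ovary 3.

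Junction genes made up the next group. *cdh1.S*, E-cadherin, the adhesion protein of adherens junctions, was at 1.68, 1.98 and 1.40 per 10000 in keratin cells and at 0.0138, 0.144 and 0.0290 in stromal cells. It was 5.36 higher on the log2 scale (SE 0.63, adjusted p = 0.000810) and remained called without any 1 ovary. *epcam.S*, an epithelial adhesion molecule, was 3.17 higher (SE 0.39, adjusted p = 0.00102), with 1.36, 2.25 and 1.23 against 0.0886, 0.205 and 0.243. *tjp1.S*, the tight junction scaffold ZO-1, was 1.92 higher (SE 0.30, adjusted p = 0.00263). In all, 19 of 31 tested features of the junction list were higher and 0 were lower, with a median log2 difference of 1.74 against -0.06 over all genes tested. The list held 48 features, of which 8 were at 0 in keratin cells.

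Desmosomes, which tie keratin filaments to the cell border, were represented by desmoplakin. *dsp.L* was at 2.99, 4.40 and 3.88 per 10000 in keratin cells against 0.0415, 0.411 and 0.156 in stromal cells, a log2 difference of 4.43 (SE 0.63, adjusted p = 0.00189). Of 12 tested desmosome features 8 were higher and 0 lower, with a median of 2.55. Among regulators of epithelia, 4 of 6 tested features were higher: *spint2.L*, *cdh3.S*, *st14.L* and *lad1.S*. *lad1.S*, an anchoring protein of basement membranes, was at 0.320, 0.266 and 0.170 against 0.00554, 0 and 0.0174. At the apical surface 8 of 13 were higher, led by *ezr.L* (ezrin, which links membrane and actin) at 0.938, 1.24 and 0.818 against 0.0222, 0.288 and 0.0232, a call that was lost without ovary 1 and without ovary 3.

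**Figure D2:**
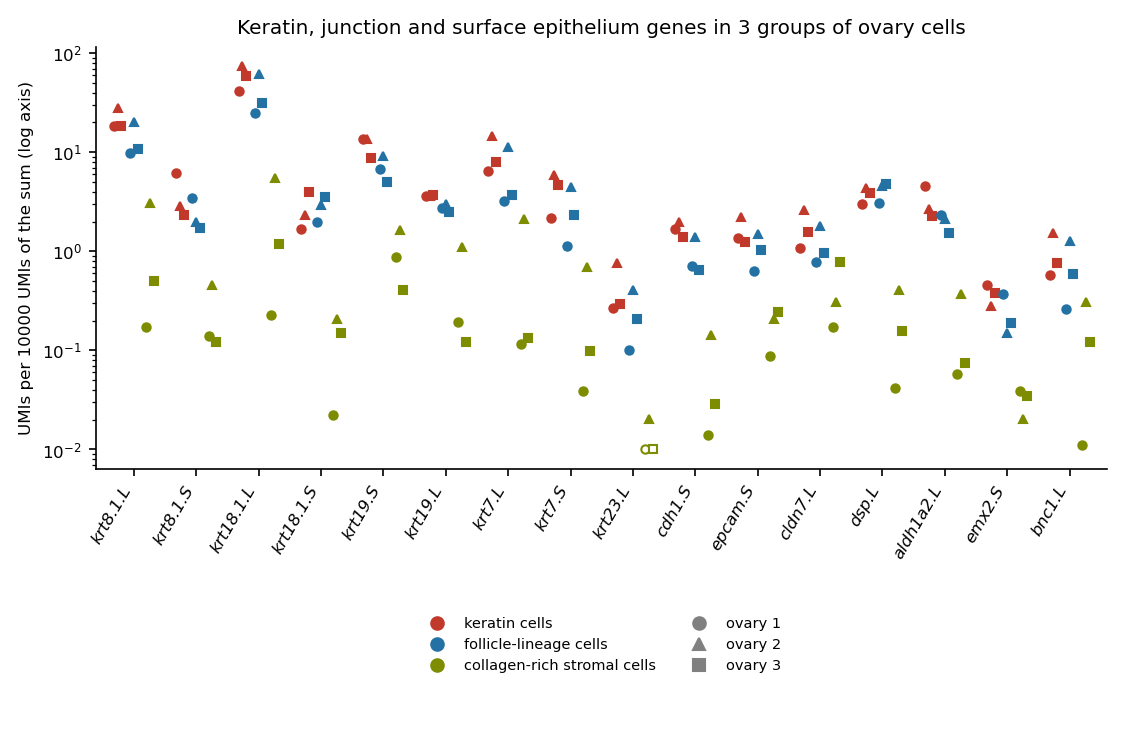
UMIs per 10000 UMIs (vertical axis, log scale) of keratin, junction and surface epithelium genes (horizontal axis) in keratin cells, follicle-lineage cells and collagen-rich stromal cells; each point is the summed cells of 1 ovary, and open points stand for values under 0.01. The first 4 genes are those of the rule; stromal cells lie below both other groups, apart from an overlap of single ovaries with follicle-lineage cells at cldn7.L and bnc1.L, with ovary 2 highest among them for most genes, and follicle-lineage cells lie close to keratin cells.

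Of the genes known from the ovarian surface epithelium and the body cavity lining of other vertebrates, *aldh1a2.L* was at 4.60, 2.67 and 2.29 per 10000 in keratin cells against 0.0582, 0.370 and 0.0753 in stromal cells. It was 4.57 higher on the log2 scale (SE 0.68, adjusted p = 0.00223; 0.0536 without ovary 1). *emx2.S*, a homeobox gene needed for gonad formation in the mouse, was at 0.453, 0.281 and 0.382 against 0.0388, 0.0205 and 0.0348, a log2 difference of 3.29 (SE 0.41, adjusted p = 0.00107). These levels did not overlap for either gene. *bnc1.L*, *gata6.S*, *lhx2.S*, *emx2.L* and *nr5a1.L* were also higher, though the first, the second and *emx2.L* were not called without ovary 1, the first, the second and *nr5a1.L* not without ovary 3, and *nr5a1.L* not without ovary 2. 2 members were lower: *osr1.S* and *tcf21.L*, a transcription factor of mesenchyme, which was at 0.0110, 0.0148 and 0 against 1.57, 0.616 and 0.753. *gata4.S*, a gonadal transcription factor, was at 1.41, 1.17 and 1.55 in keratin cells and 1.13, 1.36 and 1.29 in stromal cells, which overlapped (log2 difference 0.06, SE 0.24, adjusted p = 0.926). In all, 7 of 18 tested features were higher and 2 lower.

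Retinoic acid genes split by enzyme. *aldh1a1.L* was higher in keratin cells like *aldh1a2.L* (3.80, 3.00 and 2.12 against 0.210, 1.40 and 0.278; no longer called without ovary 1 or without ovary 3). The related enzyme *aldh1a3.S* was lower, at 0.0442, 0.0148 and 0.0212 against 0.413, 0.534 and 0.475. *cyp26b1.S*, which degrades retinoic acid, was lower as well, at 0.00552, 0.0886 and 0 against 0.668, 0.308 and 0.209 (not called without ovary 1). Of 17 tested features 2 were higher and 8 lower, the latter including the receptors *rarb.L* and *rarg.S*.

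Wnt signals were represented by *rspo2.L*, a secreted R-spondin that strengthens Wnt signalling. It was at 0.596, 0.960 and 0.807 per 10000 in keratin cells against 0.00831, 0.0411 and 0 in stromal cells, 6.17 higher on the log2 scale (SE 0.63, adjusted p = 0.000399). *wnt4.S*, a Wnt ligand of the developing ovary in the mouse, was at 0.171, 0.251 and 0.329 against 0.00277, 0.0205 and 0 (log2 difference 5.67, SE 0.69, adjusted p = 0.000902). Both remained called without any 1 ovary. *fzd3.L*, *wnt5b.L* and *lef1.L* were higher too, the last not without ovary 1 or without ovary 3, whereas *wnt5a.L* and *axin2.L* were lower. This gave 5 higher and 2 lower of 13 tested. Against follicle-lineage cells, with the ovary as a block, 2 of 17 tested Wnt features were higher and 1 lower, against 2.88% and 2.94% over all genes. Against the follicle-lineage cells within the keratin and collagen limits, 0 of 16 were higher and 1 was lower, against 1.45% and 1.63% over all genes.

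By the rule of largest change, the 12 leading genes that were higher were *scn3b.S*, *krt23.L*, *sbk2.L*, *rspo2.L*, *ndp.S*, *irx5.S*, *olfml2a.L*, *styxl2.L*, *edil3.L*, *fermt1.S*, *cdh1.S* and *lix1.S*. *scn3b.S*, a sodium channel subunit, was at 0.756, 0.886 and 0.297 per 10000 in keratin cells against 0, 0.0616 and 0, and it lost its call without ovary 1, as did *styxl2.L*. *ndp.S*, norrin, a secreted ligand of a Frizzled receptor, had 119 UMIs in keratin cells and 3 in stromal cells, a ratio of 67.3 in pooled levels (95% counting interval 22.5 to 331). *fermt1.S*, kindlin-1, which activates integrins in epithelia, was at 0.513, 0.694 and 0.393 against 0.0111, 0.0205 and 0.00579. The integrin *itga6.S* and the laminin chain *lama3.L*, both of which anchor epithelia to their basement membrane, were higher as well, by 5.02 (SE 0.80, adjusted p = 0.00278; 0.0584 without ovary 1) and 3.76 (SE 0.55, adjusted p = 0.00200) on the log2 scale.

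The 12 leading genes that were lower were *igfbp4.L*, *lum.S*, *hmcn1.L*, *ptx3.L*, *phex.S*, *pdgfra.S*, *lrrc15.S*, *loxl3.S*, *colec12.S*, *col6a1.S*, *colec12.L* and *ogn.S*. *igfbp4.L*, an insulin-like growth factor binding protein, had 0 UMIs in keratin cells and 1105 in stromal cells, at least 217-fold lower against a floor of 3 UMIs over the group. *pdgfra.S*, the PDGF receptor of mesenchyme, was at 0 as well and at least 81.9-fold lower. *ogn.S*, a small proteoglycan, was at 0.0386, 0.0295 and 0 against 11.3, 10.1 and 9.07 (log2 difference -8.67, SE 0.60, adjusted p = 0.000125). Of 29 tested features of the stroma list 27 were lower. The mesenchymal programme had 8 of 15 lower, among them *snai1.S* (-6.05, SE 0.72, adjusted p = 0.000827), *twist1.L* (not called without ovary 1) and both copies of *vim* (*vim.L* not called without ovary 2), and 2 higher, *tgfb2.L* and *cdh2.S*.

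Basement membrane genes moved both ways. *lama2.L* was at 0.121, 0.118 and 0.202 per 10000 in keratin cells against 4.95, 4.44 and 5.67 in stromal cells (log2 difference -5.17, SE 0.32, adjusted p = 5.79e-05). In all 13 of 30 tested features were lower, chiefly laminins, nidogens and type IV collagens. The 6 higher were *lama3.L*, *itga6.S*, *itga3.L*, *agrn.S* and both copies of *col18a1*. The other agrin copy *agrn.L*, with more UMIs, was at 0.613, 0.340 and 0.584 against 0.493, 0.699 and 0.765, so it was lower in ovaries 2 and 3. Steroid genes were few: 2 of 7 were higher, *cyp19a1.L* and *fdxr.L* (the latter not called without ovary 1), and *por.L* was lower. Of the smooth muscle list 3 of 10 were lower. For cell division 0 of 27 were called in either direction by edgeR (median log2 difference -0.77), with 8 lower under the ovary block. Genes of the dissociation response, which are switched on while tissue is taken apart, gave 1 higher and 2 lower of 31. Over all genes tested, 7.18% were higher and 8.49% lower by edgeR, and 13.6% were lower with the ovary block.

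**Figure D3:**
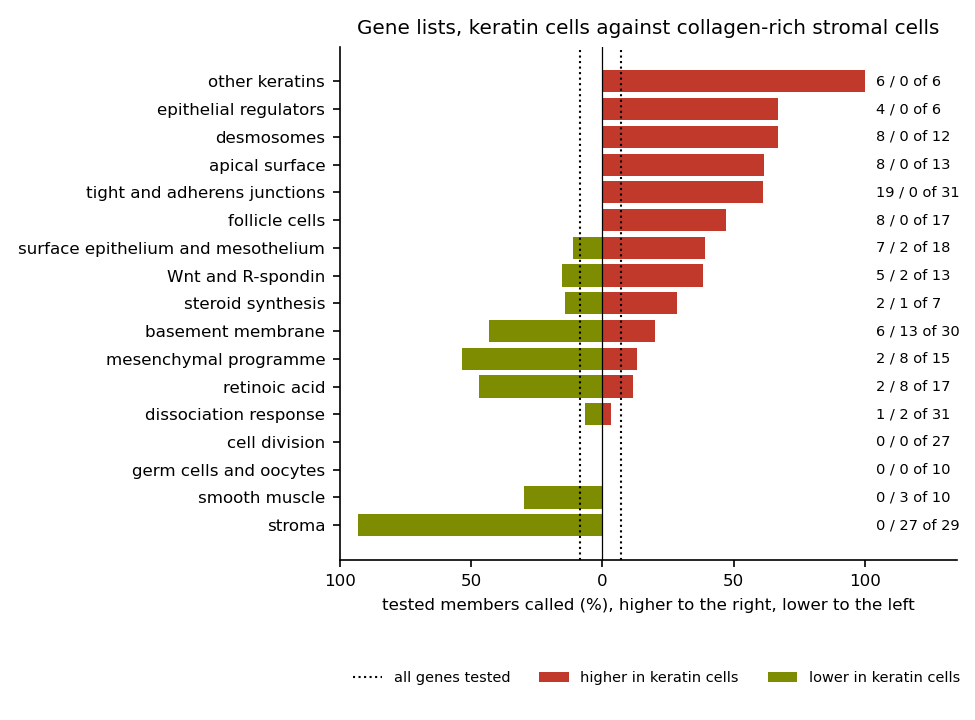
Share of tested features of each gene list (vertical axis) called higher (red, right) or lower (green, left) in keratin cells than in collagen-rich stromal cells (horizontal axis, percent), for lists with at least 6 tested features; text gives higher / lower of tested. Dotted lines are the shares over all genes tested, 7.18% higher and 8.49% lower; keratins, junctions, desmosomes and the apical surface lie to the right and stroma to the left.

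Genes of follicle cells other than the *foxl2* and *amh* of the rule were present in keratin cells. *fshr.L*, the receptor for follicle-stimulating hormone, was at 1.28, 1.11 and 1.07 per 10000 in keratin cells against 0.0969, 0.267 and 0.0695 in stromal cells (log2 difference 3.15, SE 0.45, adjusted p = 0.00192; 0.0616 without ovary 1). *cyp19a1.L*, aromatase, which makes oestrogen, was at 0.359, 0.709 and 0.860 against 0.0166, 0.0205 and 0.0464 (4.37, SE 0.47, adjusted p = 0.000490, called without any 1 ovary). *inha.L*, the alpha subunit of inhibin, was at 0.773, 2.01 and 1.99 against 0.0305, 0.329 and 0.104 (3.65, SE 0.69, adjusted p = 0.00645; 0.0686 without ovary 3). Of 17 tested features of this list 8 were higher and 0 lower. The sums of these cells, chosen by a keratin limit, therefore held other epithelial genes and genes of follicle cells. Whether the same single cells held both was not tested.

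The lists for kidney and genital duct, gut and skin epithelium each summed to at most 0.0743 per 10000 in keratin cells of any ovary, and 0 of their features passed the filter on low counts in this comparison. *pax8.L* and *foxj1.L*, the latter of a list for motile cilia, had 0 UMIs and *tp63.S* had 1. The motile cilia list as a whole summed to 4.61, 7.87 and 9.76 per 10000 in keratin cells. It summed to 2.74, 4.07 and 7.90 in stromal cells and to 7.15, 8.28 and 15.1 in the other somatic cells. Against stromal cells 1 of its 4 tested features was higher and 0 were lower, with 7.18% and 8.49% over all genes. Globins and other red blood cell genes summed to 0.403, 0.281 and 0.754 per 10000, against 32.9, 39.5 and 87.4 in the other somatic cells in the same order. The leukocyte list summed to 1.68, 1.54 and 0.775 per 10000, against 0.512, 0.411 and 0.417 in stromal cells and 3.77, 3.65 and 2.45 in the other somatic cells. Its defining gene *ptprc.S* was at 0, while the 2 features that could be tested, both copies of *cd74*, were higher than in stromal cells. The part of leukocyte RNA in this was not tested. Oocyte RNA differed between ovaries: the list of germ cell and oocyte genes summed to 3.49, 5.18 and 16.1 per 10000 in keratin cells and to 3.64, 1.73 and 19.5 in stromal cells. Ovary 3 was highest in both groups, and 0 of 10 tested features of the list were called.

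Keratin UMIs in stromal cells of ovary 2 moved with several of these results. Stromal cells of ovary 2 had the highest levels of *krt7.L*, *cdh1.S*, *dsp.L*, *aldh1a2.L* and *bnc1.L* among the 3 stromal sums, and 6.84% of them held 3 or more keratin UMIs against 1.16% and 1.12% in ovaries 1 and 3. The part of this in the spread was not tested. Without ovary 1, 572 genes were called in place of 1719; without ovary 2 there were 1351 and without ovary 3 1040. Of the 75 called genes singled out in this comparison, 28 lost their call without ovary 1, 4 without ovary 2 and 19 without ovary 3, always with the same sign.

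The second comparison asked how keratin cells differ from the follicle-lineage cells (1780, 424 and 904 cells). In these sums 0 of 13384 genes (0%) were called in either direction by edgeR, with 496 (3.71%) at an unadjusted p under 0.05. DESeq2 called 41 genes (0.306%), all of them lower in keratin cells, with 366 (2.73%) at an unadjusted p under 0.05. With the ovary as a block the call changed: 385 genes (2.88%) were higher and 394 (2.94%) lower, 779 (5.82%) in all. The 2 sums of an ovary deviated together, with correlations of 0.67, 0.59 and 0.54 across genes. The values below are those of the blocked test, in which edgeR pools the spread across genes. Their very small p-values depend on that pooling and not on the 3 animals alone. Without the block edgeR called 0 of the 46 genes singled out in this comparison, or 12 of them with no filter on low counts. They were picked after their values were seen.

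Many lower genes were those of stroma. *igfbp4.L*, *lum.S*, *col6a1.S*, *bgn.S*, *col6a2.S* and *ogn.S* led the list, and 20 of 26 tested stroma features were lower. Keratin cells had a collagen limit and follicle-lineage cells had none. The part of that limit alone in these calls was not tested. A second set was therefore made after seeing the data, from the 873, 365 and 436 follicle-lineage cells that also met the keratin and collagen limits. In that test 184 of 12656 genes (1.45%) were higher and 206 (1.63%) lower in keratin cells with the block, 390 (3.08%) in all, and 0 were called without it. Of the stroma list 15 features were tested in this set, with 1 higher and 2 lower. Their median log2 difference was -0.08, against -2.07 for the 26 tested against all follicle-lineage cells. These follicle-lineage cells held more UMIs each, with a median of 5116 against 2366 in keratin cells. The part of depth in the differences was not tested.

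Some genes of follicle cells were lower in keratin cells in this set. Since its groups were divided by 0 against at least 1 UMI of *foxl2* or *amh*, lower levels of genes expressed together with these follow in part from the rule. *gja1.L*, connexin 43, which forms the gap junctions of follicle cells, was at 0.530, 0.133 and 0.680 per 10000 in keratin cells and at 2.65, 0.681 and 2.39 in follicle-lineage cells within the limits. It was lower in each ovary, by -2.14 on the log2 scale (SE 0.13, adjusted p = 2.13e-52). *inha.L* was at 0.773, 2.01 and 1.99 against 2.20, 2.85 and 3.21 (-0.92, SE 0.10, adjusted p = 2.42e-17), and *cyp19a1.L* at 0.359, 0.709 and 0.860 against 0.871, 1.20 and 1.30 (-0.90, SE 0.14, adjusted p = 1.20e-08). For these 3 genes the values of the groups did not overlap, although the highest *gja1.L* and *cyp19a1.L* values of keratin cells, 0.680 and 0.860, lay just under the lowest of the follicle-lineage cells. *inhba.L*, an activin and inhibin subunit, was called lower (-1.18, SE 0.17), though in ovary 2 keratin cells held more of it (0.739 against 0.640). *fshr.L* was not called (-0.30, SE 0.11, adjusted p = 0.146), while *fshr.S* was (-0.53, SE 0.15, adjusted p = 0.0279).

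*hk2.S*, *cyp11a1.S* and *col4a1.L* were lower as well. *hk2.S*, a hexokinase of glycolysis, was at 0.0552, 0.0295 and 0.234 against 0.470, 0.129 and 0.630 (-2.17, SE 0.24, adjusted p = 1.20e-16). *cyp11a1.S*, which starts steroid synthesis from cholesterol, was at 0.0497, 0.103 and 0.181 against 0.249, 0.353 and 0.420 (-1.73, SE 0.25, adjusted p = 1.25e-09). *col4a1.L*, a type IV collagen chain, was at 0.409, 0.266 and 1.34 against 1.48, 0.582 and 3.31 (-1.51, SE 0.13, adjusted p = 1.68e-27). In each ovary these 3 genes were lower in keratin cells. Of the steroid synthesis list 2 of 8 tested features were lower and 0 higher. Of the basement membrane list 8 of 28 were lower and 0 higher, and of the follicle list 5 of 19 were lower and 2 higher, *irx3.S* and *kitlg.L*.

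Some genes of the epithelium were higher, by small steps. *krt19.S* was at 13.5, 13.6 and 8.83 in keratin cells against 9.68, 9.71 and 7.25 (0.41 on the log2 scale, SE 0.06, adjusted p = 8.00e-10), and *krt7.L* at 6.53, 14.6 and 7.97 against 5.02, 12.3 and 5.51 (0.37, SE 0.06, adjusted p = 8.38e-07). *cdh1.S* was at 1.68, 1.98 and 1.40 against 1.09, 1.47 and 0.956 (0.53, SE 0.11, adjusted p = 0.000144). The ranges of *krt19.S* and *krt7.L* overlapped across ovaries, yet keratin cells were higher within each ovary. *bnc1.S*, basonuclin, a zinc finger protein of epithelia, was at 0.282, 0.192 and 0.0956 against 0.128, 0.0415 and 0.0732 (1.17, SE 0.26, adjusted p = 0.000655). Its other copy *bnc1.L*, with more UMIs, was at 0.574, 1.52 and 0.754 against 0.408, 1.37 and 0.839, so it was lower in ovary 3. Germline cells held *bnc1.S* at 0.156, 0.197 and 0.206. *cldn3.L*, a claudin of tight junctions, was 0.74 higher (SE 0.17, adjusted p = 0.000943). Of the junction list 6 of 38 tested features were higher and 0 lower, and of the other keratins 3 of 6. The apical surface had 1 of 14 higher, the surface epithelium list 1 higher and 1 lower of 17, and the epithelial regulators 0 of 10 in either direction. Of 13 desmosome features 0 were higher and 1 was lower, *dsp.L* (-0.31, adjusted p = 0.0056). *aldh1a2.L* was called against all follicle-lineage cells (0.68, SE 0.12, adjusted p = 9.73e-05) but not against those within the limits (0.21, SE 0.09, adjusted p = 0.227).

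**Figure D4:**
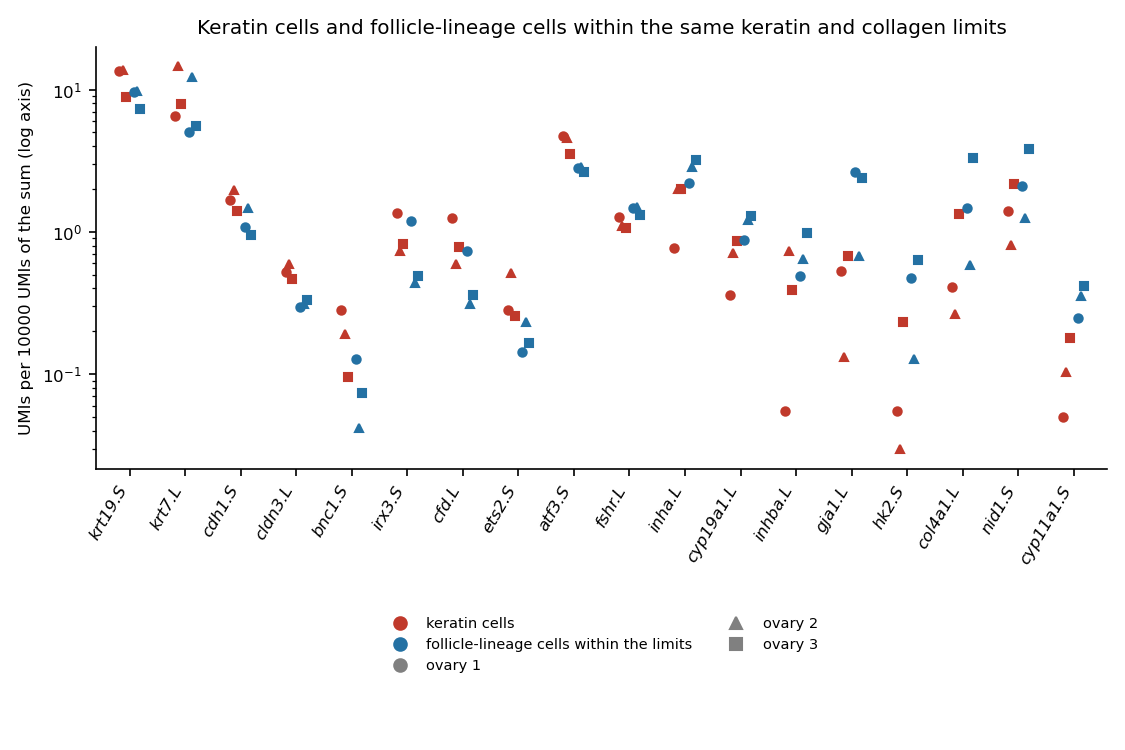
UMIs per 10000 UMIs (vertical axis, log scale) of named genes (horizontal axis) in keratin cells and in follicle-lineage cells within the same keratin and collagen limits; each point is the summed cells of 1 ovary. Keratin cells lie above for krt19.S, cdh1.S and bnc1.S and below for gja1.L, hk2.S and col4a1.L within each ovary; gja1.L was at 0.530, 0.133 and 0.680 against 2.65, 0.681 and 2.39.

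Other higher genes in this set were *cfd.L*, complement factor D, at 1.26, 0.591 and 0.786 against 0.730, 0.312 and 0.361 (0.89, SE 0.14), and the transcription factors *ets2.S* (0.93, SE 0.20) and *atf3.S* (0.62, SE 0.08), the latter a gene of the stress and dissociation response. Of the dissociation list 4 of 31 tested features were higher and 0 lower in this set, where 1.45% of all genes were higher. Against the other somatic cells with the block, 15 of 32 were higher and 0 lower, where 8.25% of all genes were higher. The part of dissociation in these rises was not tested. Oocyte RNA also stood higher: 5 of 12 tested features of the germ cell and oocyte list were called, among them *42sp43.L* at 0.624, 1.89 and 4.81 against 0.664, 1.27 and 3.01 (0.42, SE 0.10, adjusted p = 0.00353). In ovary 1 *42sp43.L* was not higher in keratin cells. *kpna7.S*, *zfp36l2.2.L*, *rnf138.S* and *h2ax.S*, which were among the 12 largest rises, were lowest in ovary 2 in keratin cells. The last 3 of them were also leading genes of 15 keratin cells, sub-group 6 below, which had 0 cells from ovary 2. Of these 15 cells, 10 were among the 5% with the highest doublet score. Doublet calling did not work in ovaries 2 and 3, though, and called only 0.752% of cells in ovary 1. *h2ax.S* was at 3.13 per 10000 in sub-group 6 and at 0.171 in the other keratin cells. The part of these cells in the rises was not tested. Whether oocyte RNA from outside the cells had a part in these rises was not tested.

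The third comparison set keratin cells against all other somatic cells (4094, 861 and 2769 cells), which mix follicle, stromal, blood and further cells. The rule divided these groups too, so changes in genes expressed together with its genes follow in part from it. By edgeR, 2 of 15206 genes (0.0132%) were higher and 157 (1.03%) lower, 159 (1.05%) in all, with 1680 (11%) at an unadjusted p under 0.05. DESeq2 called 361 (2.37%). With the ovary block there were 1255 higher (8.25%) and 1484 lower (9.76%). Of the 2 higher genes 1 is known by a locus number only, and the other, *itga6.S*, was at 0.243, 0.251 and 0.191 per 10000 against 0.0819, 0.0682 and 0.0889, which did not overlap (1.63 on the log2 scale, SE 0.29, adjusted p = 0.0395). *apoc1.L*, an apolipoprotein gene with 1117 UMIs elsewhere, and *trem2.S*, a macrophage receptor with 445, had 0 UMIs in keratin cells and were at least 46.5-fold and 18.5-fold lower. The other lower genes named by the rule were *igfbp4.L*, *hmcn1.L*, *crp.4.L*, *lrrc15.S*, *itgb2.S*, *ptprc.S*, *was.S*, *vsig4.L*, *lum.S* and *camk2a.S*, a mix of stromal and leukocyte genes. Without ovary 1 only 3 genes were called, without ovary 2 26 and without ovary 3 15, and of the 13 named genes 13, 10 and 12 lost their call.

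With the block, *cldn3.L*, *cxcl14.L* and *frzb.L* were among the leading rises over other somatic cells. *cldn3.L* was at 0.519, 0.591 and 0.467 per 10000 in keratin cells (2.07 on the log2 scale, SE 0.22, adjusted p = 2.46e-06). *cxcl14.L*, a chemokine of epithelia, was at 0.464, 1.29 and 0.542 (2.08, SE 0.26, adjusted p = 1.47e-05), and *frzb.L*, a secreted Wnt antagonist, at 0.397, 0.0739 and 0.149 (2.21, SE 0.29, adjusted p = 2.25e-05). *cxcl14.L* was highest in ovary 2 and *frzb.L* in ovary 1, so the ovaries did not share 1 order.

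Genes at 1 per 10000 or more in keratin cells were ranked by the smaller of 2 ratios of mean levels over the 3 ovaries. The ratios were keratin cells over stromal cells and keratin cells over follicle-lineage cells. The ranking made no comparison with the levels of the keratin genes themselves. Of the 10 leading genes, those reported here were *myh11.S*, *ift74.L*, *cdh1.S*, *areg.L*, *atf3.L*, *krt19.S*, *anxa1.1.L*, *cxcl8a.S* and *tagln.L*, with a smaller ratio of 2.24 down to 1.69. *myh11.S*, smooth muscle myosin, led because of 1 ovary: it was at 3.04, 0.251 and 0.340 in keratin cells, and in ovary 2 both other groups were higher, at 0.719 and 0.301. *ift74.L*, a gene of cilium transport, was at 2.69, 1.79 and 0.191, high in ovaries 1 and 2 only. *cdh1.S* (ratio 1.85), *krt19.S* (1.73), *areg.L*, *atf3.L*, *anxa1.1.L* and *cxcl8a.S* were higher in keratin cells than in both other groups in each ovary. *tagln.L* was not, since in ovary 2 it was at 1.45 in keratin cells and 1.77 in stromal cells.

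The keratin cells were clustered among themselves into 7 sub-groups, numbered 0 to 6. Cells were grouped on the same genes whose levels follow, so these levels are a description. Sub-group 0 held 461 cells (215, 68 and 178 from ovaries 1, 2 and 3) and sub-group 1 held 319 (183, 58 and 78). They differed in depth, with a median of 1550 against 4642 UMIs. The leading gene with a known growth role in sub-group 0 was *igf2.L*, insulin-like growth factor 2, at 3.46 per 10000 against 1.42 in other keratin cells. *jun.L* was at 3.22 against 1.36 and *fshr.L* at 1.95 against 0.950. The dissociation list summed to 114 per 10000 in sub-group 0, 86.6 in sub-group 1 and 87.5 in sub-group 2. In the small sub-groups it ranged from 57.0 to 120. Sub-group 1 was led by ribosomal protein genes such as *rpl38.S* (17.8 against 11.9) and by *cldn6.2.L*, a claudin, at 9.43 against 6.39. The part of depth or of dissociation in this division was not tested.

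Sub-group 2 held 127 cells (38, 38 and 51) and was led by genes known from mitosis. *cenpf.L*, a kinetochore protein, was at 2.97, 2.88 and 1.51 per 10000 in ovaries 1, 2 and 3 against 0.0796, 0.0569 and 0.102 in the other keratin cells. *top2a.L*, which untangles replicated DNA, was at 3.25, 3.14 and 3.20 against 0.165, 0.417 and 0.294. Their keratin level was a median of 94.7 per 10000, not below the other large sub-groups (84.4 and 74.4). The sub-group took 7.35%, 21.7% and 14.6% of the keratin cells of ovaries 1, 2 and 3.

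Sub-group 4 held 42 cells (24, 9 and 9) and was led by *rtp3d.S*, with several genes known to be induced by interferon below it. *gbp6.L*, a guanylate-binding protein, was at 6.05, 3.89 and 1.57 per 10000 against 0.280, 0.590 and 0.0542, though the value of 1.57 in ovary 3 rests on 3 UMIs. *ifit1b.L* was at 2.23, 1.20 and 2.10 against 0.143, 0.171 and 0.206. *rtp3d.S* and *olfm4.L* came mainly from ovary 1: *olfm4.L* had 15 UMIs there and 0 in the others.

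3 small sub-groups carried genes of other cells. Sub-group 3 (54 cells: 29, 2 and 23) was led by *pmp2.S*, *acta2.S*, *aqp1.L*, *col4a1.L* and *gja1.L*, and its keratin median was 31.1 per 10000. *acta2.S*, smooth muscle actin, was at 16.0 in ovary 1 and at 0.167 in ovary 3, from 1 UMI, whereas *pmp2.S* was at 16.9 and 7.17. Its cells therefore differed between the ovaries. *gja1.L* was at 5.67 in sub-group 3 and 0.262 in the other keratin cells. Sub-group 5 (23 cells: 21, 0 and 2) was led by the type IV collagen chains *col4a5.L* (9.24 against 0.0476) and *col4a6.L*, with a keratin median of 33.8. Sub-group 6 (15 cells: 7, 0 and 8) was led by oocyte genes, *btg4.S*, *h1-8.S* and *zp3.S*, and 10 of its 15 cells were among the 5% with the highest doublet score. Doublet calling did not work in ovary 3, the source of 8 of these cells, so the score is weak evidence there. In ovary 1, the source of the other 7, only 0.752% of all cells were called. Leaving out sub-groups 3, 5 and 6 gave 1729 calls against stromal cells and 789 against follicle-lineage cells with the block, in place of 1719 and 779. Without the block it gave 8 against follicle-lineage cells, in place of 0.

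**Figure D5:**
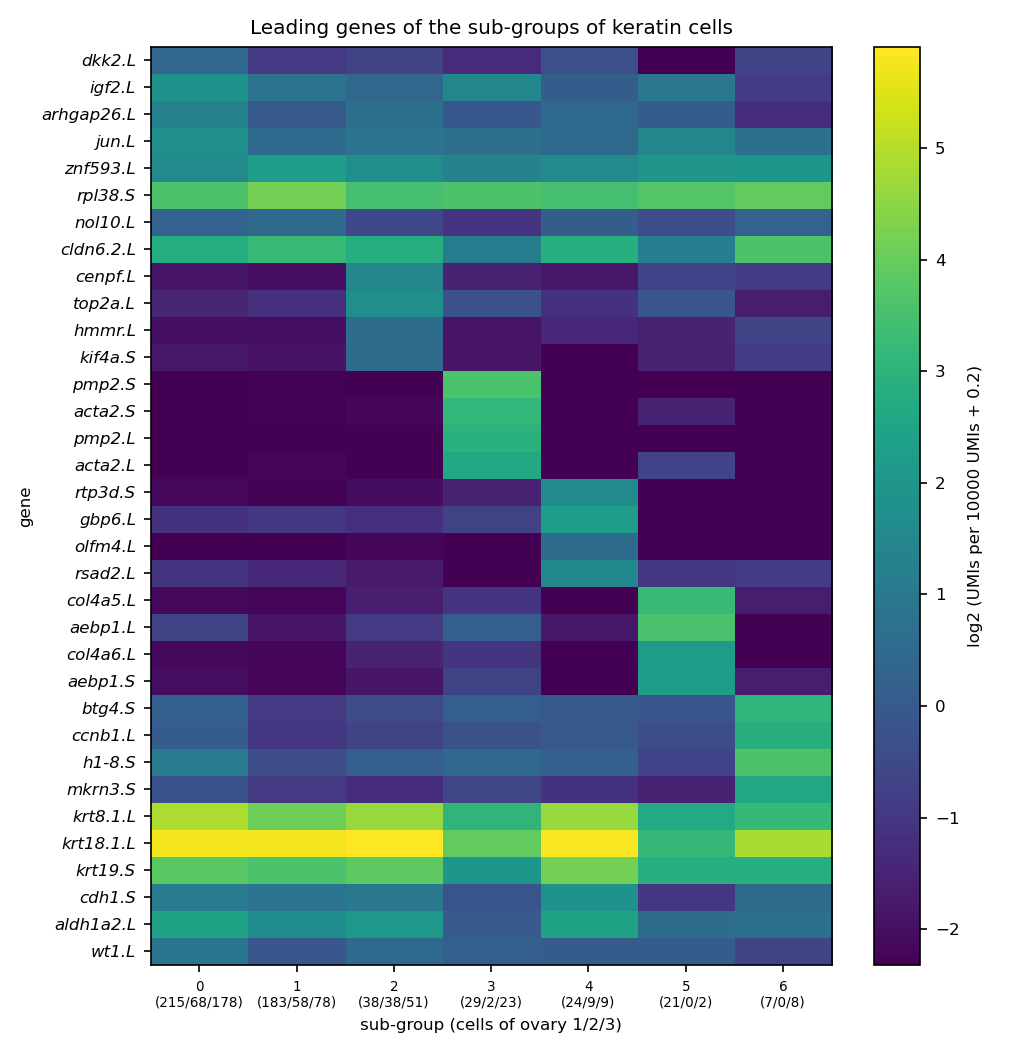
Level of genes (vertical axis) in the 7 sub-groups of keratin cells (horizontal axis, with the cells of ovaries 1, 2 and 3 in brackets). The genes are the 4 leading ones of each sub-group, then krt8.1.L, krt18.1.L, krt19.S, cdh1.S, aldh1a2.L and wt1.L. Colour is log2 of UMIs per 10000 UMIs plus 0.2. Sub-groups 3, 5 and 6 are lowest in krt18.1.L, at 14.9, 8.81 and 28.9 per 10000, against 54.3 to 59.9 in sub-groups 0, 1, 2 and 4.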

How the data were processed

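The deposited files held whole-number UMI counts per gene and cell barcode, which the authors made with Cell Ranger 8.0.1 from droplet libraries; the genome build was not given in the sources used here. Features with 1 name were summed (41881 names), and UMIs of features without a name (0.363% to 0.443%) stayed in the totals. The older keratin names were matched through synonyms in the RefSeq table; *krt8.L* has none there, and *krt8.1.L* was taken as the partner of *krt8.1.S*. Counting *krt8.2* and *krt18.3* too left 1041 members. Total UMIs were 54585110, 50307231 and 34060121 for ovaries 1, 2 and 3. The members and gene lists were chosen with earlier results of these data known.

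Counts were summed per ovary and group and tested with edgeR 4.0.16 (TMM, filterByExpr, quasi-likelihood test), DESeq2 1.42.0 being an alternative. The SE given is the size of the log2 difference over the square root of the test's F statistic, so it is derived from the test. With 3 sums against 3, p-values rest on the spread between 3 animals, which edgeR moderates by pooling across all genes. In the blocked fit the spread is that of the differences within ovaries, and the very small p-values there depend on the pooling. Same-ovary sums came from 1 animal and deviated together (correlations 0.37 to 0.67), so a fit with the ovary as a block was run. On simulated counts, edgeR without the block found 58, 60 and 36 of 100 genes changed 4-fold and 3, 3 and 1 of 100 changed 2-fold in the stromal, follicle and other comparisons. Of unchanged genes it called 8 of 10768, 8 of 13086 and 2 of 15003. The simulated sums had no shared ovary effect, and the blocked fit was not tried on them. Keratin cells were clustered with Seurat 5.3.0 (2000 variable genes, CCA integration, 20 dimensions, resolution 0.5). Scrublet (scanpy 1.11.5) called 45, 5 and 8 doublets, 0.752% of cells in ovary 1 and under 0.5% in ovaries 2 and 3. It did not work in ovaries 2 and 3, and few were called in ovary 1 too. No cell was removed, and an alternative left out the 5% with the highest score. Named genes were the 12 largest rises and 12 largest falls called in each comparison. They had a mean of at least 20 counts and 1 direction in 3 ovaries. List members with the highest level or largest change were also named. So were the 10 genes with the largest smaller ratio over stromal and follicle-lineage cells. Alternatives covered the limits of the rule, the count filter, thinning and single ovaries. Some genes that met these rules are not reported here.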

Additional observations from a re-analysis of the deposited data

How the results depend on the processing

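Of the named genes, only *gata4.S* against stromal cells changed sign (-0.0146 to 0.283 without single ovaries, -0.0146 without ovary 3), and it was not called there. Against stromal cells, 1719 calls became 2855 with no filter on low counts, 2818 with the replicate block and 2798 with the block and without sub-groups 3, 5 and 6 (chosen after seeing the data), and 572 to 1351 without single ovaries. Against follicle-lineage cells, 0 calls became 41 with DESeq2, 20 with germ genes under 2 per 10000, 172 with no filter, 779 with the replicate block, 390 with the block and follicle-lineage cells within the limits, 789 with the block without sub-groups 3, 5 and 6, and 8 without those sub-groups; the lowest and highest count without single ovaries was 0. Against other somatic cells, 159 calls became 361 with DESeq2, 319 with germ genes under 2 per 10000, 730 with no filter, 2739 with the replicate block, 2730 with the block without sub-groups 3, 5 and 6, 246 without those sub-groups, and 3 to 26 without single ovaries. The cause of these moves was not tested, save that single ovaries leave 2 sums against 2. Against stromal cells the block added 4 of 81 named genes and lost 0. The share of keratin cells in ovary 2 became 21.2% with no limit on mitochondrial UMIs. The 7 sub-groups became 10 at resolution 1.0, and without integration the best overlap of a sub-group, as a Jaccard index, was 0.0476 to 0.553. A count of 0 UMIs of *foxl2* or *amh* in a shallow cell is weak evidence, and genes of few UMIs per ovary have wide counting error.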
